A study of Mus musculus with 6 samples.

Results

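The genes described here are 34 names of the p53 pathway, without the cell cycle inhibitor gene Cdkn1a. They were taken by symbol from a table of read counts with 27179 gene identifiers. Of the 34 names, 33 were found in the table and 1, Tap53, matched no symbol or older name. Of these 33 genes, 29 passed the filter on low counts and were tested, and the other 4 (Trp73, Perp, Dram1 and Plk2) did not. The counts come from RNA sequencing of GFP-positive leukaemia cells sorted from mouse spleen after 3 days of panobinostat or vehicle, with 3 libraries per group. Panobinostat inhibits histone deacetylases, enzymes that take acetyl groups off histones and other proteins, p53 among them. Both groups, the vehicle controls included, are C57BL/6 leukaemias labelled A/E9a;NRASG12D;Ifnar1-/-, which names the fusion oncogene A/E9a, a mutant and active NRAS, and a lost subunit of the receptor for type I interferons. Whether libraries within a group stem from different mice is not stated in the labels, so each p-value reflects no more than library-to-library spread, which may be technical.

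The p53 protein is a transcription factor that is made and degraded continuously. Damage to DNA or oncogene signalling halts its degradation by Mdm2, and p53 then switches on genes that stop the cell cycle, repair DNA, adjust metabolism or kill the cell. Mdm2 is itself such a target, so the pathway carries its own brake. In blood cells p53 is best known for limiting the growth of damaged progenitors and of leukaemias. Since its activity is set largely at the level of the protein, the RNA of Trp53, the gene of p53 in the mouse, need not follow the RNA of its targets.

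A p53 response element, the DNA stretch that p53 binds, is made of a pair of decamers with the core CNNG in each. RefSeq promoter windows of GRCm38.p6, reaching from 250 bases before to 50 after an annotated start, were searched for the element with no spacer, both cores present and at most 3 of 20 letters off the consensus. The element reads alike on both strands. Windows were held for 27 of the 34 names, and 7 of these 27 genes had a match. Of all 27025 genes with a window, 1.63% had one. Trp53inp1, Perp, Zmat3, Rrm2b, Xpc, Ddb2 and Tap53 had no entry. The matches are shown because they let the member genes be set beside Cdkn1a, whose window held one too. A match is a stretch of letters, not a measured binding site. Capitals mark the C and G of each core, and coordinates are in GRCm38.p6.

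Ccng1 (chr11:40755462-40755481, minus strand): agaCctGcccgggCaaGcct
Rps27l (chr9:66946296-66946315, plus strand): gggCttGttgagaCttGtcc
Trp73 (chr4:154097220-154097239, minus strand): gggCaaGctgaggCctGccc
Aen (chr7:78895937-78895956, plus strand): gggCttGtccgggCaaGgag
Sesn1 (chr10:41887266-41887285, plus strand): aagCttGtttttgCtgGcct
Tigar (chr6:127109746-127109765, minus strand): ggtCtaGctctggCaaGact
Trp53 (chr11:69580284-69580303, plus strand): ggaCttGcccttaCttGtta
Cdkn1a, not a member (chr17:29090928-29090947, plus strand): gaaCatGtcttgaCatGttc

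The matches of Ccng1 and Rps27l, like that of Cdkn1a, had 1 letter off the consensus, that of Trp73 had 2, and those of Aen, Sesn1, Tigar and Trp53 had 3. Those of Rps27l, Sesn1 and Trp73 lay within the span of the gene, upstream of an annotated start inside it. That of Aen lay just inside the gene's outermost start and upstream of another. The match of Ccng1, the most abundant member by counts, began 195 bases before its start. The 250 bases upstream of that start (chr11:40755287-40755536, minus strand) are given below with the element in capitals, to show where it lies.

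Ccng1: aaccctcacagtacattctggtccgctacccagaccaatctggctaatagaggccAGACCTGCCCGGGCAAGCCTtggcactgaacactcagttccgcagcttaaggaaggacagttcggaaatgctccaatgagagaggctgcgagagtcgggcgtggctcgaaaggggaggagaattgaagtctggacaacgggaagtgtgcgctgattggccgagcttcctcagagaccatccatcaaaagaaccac

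Library totals ran from 31989622 to 35962605 counts. Levels are given as CPM, the usual counts-per-million scale, with library sizes scaled by TMM, and 3 values in a row are those of libraries 1, 2 and 3 of a group. A count of 0 allows up to 3 counts, which is 0.0834 to 0.0947 CPM, for counting error only. Vehicle library 1 stood apart from its group: its Pearson r was 0.942 with vehicle library 2 and 0.941 with vehicle library 3, but 0.976 with panobinostat library 2 and 0.984 with panobinostat library 3. These are correlations of log2 CPM over the tested genes, and genes are no replicates. Panobinostat library 1 was no closer to the vehicle group: its r was 0.950 and 0.951 with vehicle libraries 2 and 3, and 0.971 and 0.963 with panobinostat libraries 2 and 3. A mislabelled or exchanged library and a true difference between samples of 1 group cannot be told apart from these files. The labels are used as given, so each fold change and each count of calls below holds only as far as they are right. Main results are also given without vehicle library 1. A few genes were read beside the labelled cells, which cannot check the group labels. Kit ran from 121 CPM in vehicle library 1 to 266 CPM in vehicle library 3. Runx1t1, the mouse counterpart of the fusion's ETO part, ran from 161 to 225 CPM. The myeloid genes Mpo and Itgam stayed at or under 0.421 and 0.663 CPM. Ifnar1 was counted at 35.7 to 48.0 CPM in both groups, and where its deletion lies is not given in the sources used here.

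With every library in, no p53 pathway member passed the edgeR test of panobinostat against vehicle, and neither did any other gene. EdgeR's quasi-likelihood test called 0 of the 29 tested members, and it called 0% of 13207 genes. None of the 29 had an unadjusted p under 0.05 in that test, and only 301 of the 13207 genes did. The count of 0 among 29 therefore does not set the members apart. DESeq2 and limma-voom called 0 members. The log2 fold changes of panobinostat over vehicle ran from -0.40 for Btg2 to 0.71 for Plk3, with 19 estimates above 0 and 10 below. Their median was 0.07, beside 0.00 over all genes. Groups did not overlap for 1 of the 29 members, Trp53, beside 7.43% of all genes tested.

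**Figure D1:**
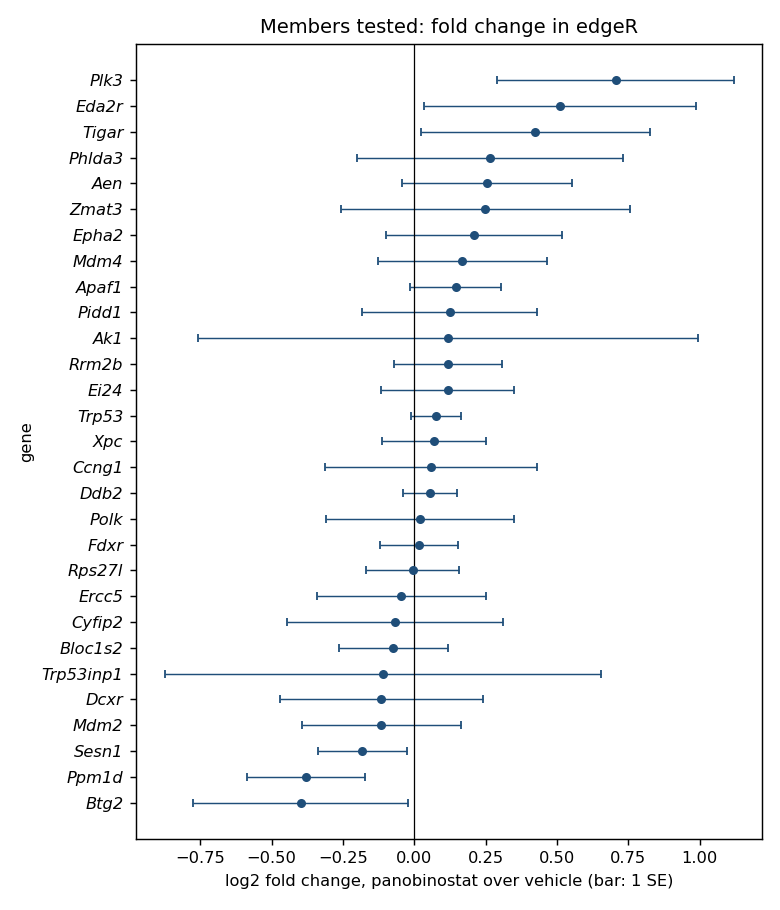
Log2 fold change of panobinostat over vehicle for the 29 tested members, from edgeR's fit over all genes, with bars of 1 standard error. The estimates lie between -0.40 and 0.71, and none passed the adjusted threshold.

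The transcript of p53 itself varied least of all 29 members. Trp53 (Entrez gene 22059, chromosome 11, 69580348 to 69591873) was counted at 332, 318 and 317 CPM in the vehicle libraries, and at 336, 343 and 339.5 CPM in those given panobinostat. All 3 panobinostat libraries lay above all 3 vehicle libraries, but the highest was only 1.08 times the lowest. The log2 fold change was 0.08 (SE 0.09), with an adjusted p of 0.998 in edgeR's test. Trp73, the gene of the related factor p73, had counts in vehicle library 1 only, at 0.126 CPM. Its match shown above, upstream of an internal annotated start, therefore stands beside a transcript at or near the floor in 6 of 6 libraries.

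Among the genes that restrain p53, Mdm2, Mdm4 and Ccng1 were highest in vehicle library 1, where Ppm1d was lowest. Panobinostat library 1 was the lowest for Mdm2 and Ccng1 but not for Mdm4. Mdm2 encodes the ubiquitin ligase that marks p53 for degradation. It stood at 156, 85.2 and 93.9 CPM without the drug, then at 78.8, 107 and 124 CPM with it. Vehicle library 1 was the highest and panobinostat library 1 the lowest, so the groups overlapped, and the log2 fold change was -0.12 (SE 0.28). Mdm4, a relative of Mdm2 that masks the activation domain of p53, was counted at 272, 117 and 174 CPM in controls, next to 194, 209 and 229 CPM after panobinostat. The log2 fold change of Mdm4 was 0.17 (SE 0.30), and vehicle library 1 again stood highest.

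Cyclin G1, encoded by Ccng1 (chromosome 11, 40748552 to 40755309), is a p53 target that feeds back on Mdm2 through a phosphatase. It reached 602 CPM in vehicle library 1, against 299 and 325 CPM in the other vehicle libraries. With panobinostat it had 259, 480.4 and 535 CPM, a 2.06-fold step between libraries 1 and 3 of the same group. Means were 408 ± 168 and 425 ± 146 CPM (SD, n = 3), and the log2 fold change was 0.06 (SE 0.37). Ppm1d, the phosphatase Wip1 that removes activating phosphates from p53 and its kinases, gave 26.7, 43.2 and 45.6 CPM and then 28.8, 29.2 and 30.9 CPM. Here vehicle library 1 was the lowest of the 6. The log2 fold change of Ppm1d was -0.38 (SE 0.21), the smallest unadjusted p among members at 0.115, with an adjusted p of 0.998 by edgeR.

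**Figure D2:**
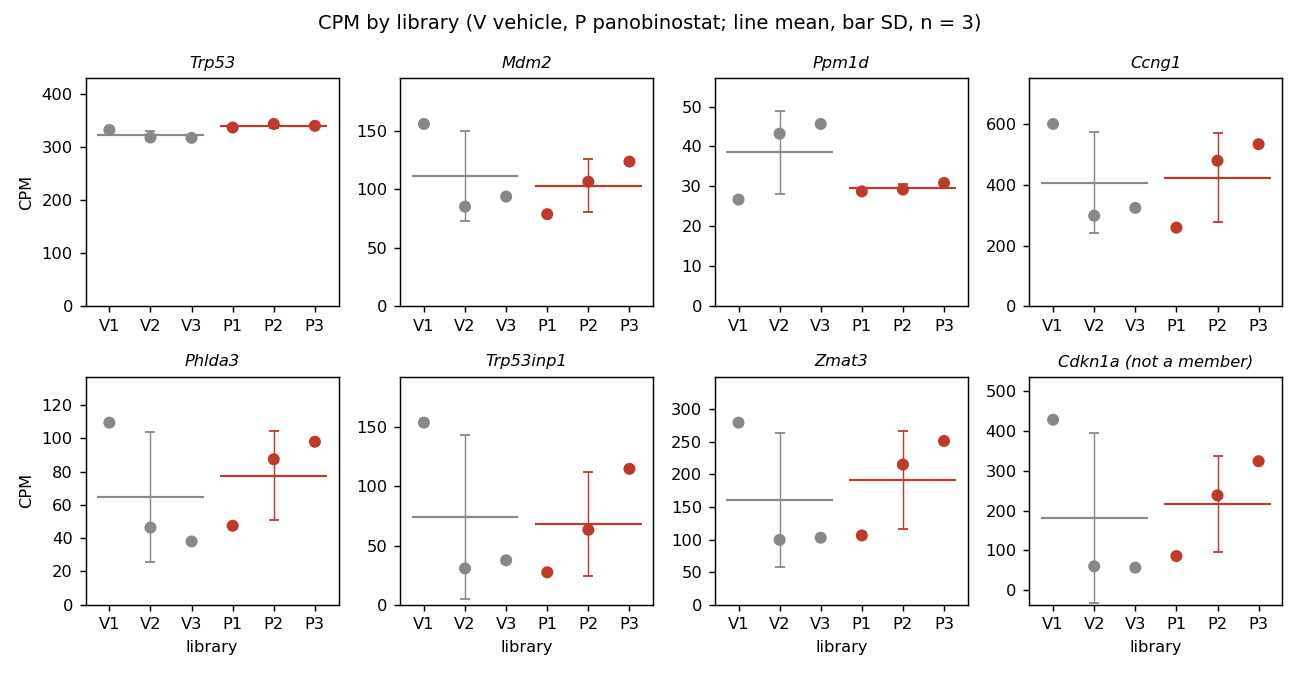
CPM in each library for 7 members and for Cdkn1a, with vehicle libraries (V1 to V3) in grey and panobinostat libraries (P1 to P3) in red, horizontal lines at the group means and bars of 1 SD (n = 3). Trp53 is level at 317 to 343 CPM, whereas Ccng1, Phlda3, Trp53inp1 and Zmat3 are high in V1, P2 and P3 and low in V2, V3 and P1, as Cdkn1a is.

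Cell death genes included the member with the widest swing among those of at least moderate level. Trp53inp1, a stress protein that enhances p53 activity and autophagy, was counted at 154, 30.6 and 37.5 CPM in vehicle and at 27.4, 63.3 and 115 CPM after panobinostat. Vehicle library 1 was 5.01 times vehicle library 2, and panobinostat library 3 was 4.19 times panobinostat library 1. Against that spread the log2 fold change of -0.11 (SE 0.76) was small. Zmat3, an RNA-binding zinc finger protein (chromosome 3, 32334792 to 32365665), had 279, 99.6 and 103 CPM in vehicle and 106, 215 and 251 CPM after the drug. Its highest library exceeded its lowest by 2.81 times, and the log2 fold change was 0.25 (SE 0.50).

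Phlda3, an inhibitor of the kinase AKT (chromosome 1, 135766085 to 135769134), ordered the 6 libraries exactly as Cdkn1a did. Its levels were 109, 46.4 and 38.04 CPM in controls, next to 47.5, 87.4 and 97.9 CPM after panobinostat, with a log2 fold change of 0.26 (SE 0.47). Eda2r, a death receptor of the TNF receptor family, was low throughout, with 3.13, 2.26 and 2.15 CPM and then 1.47, 4.47 and 4.80 CPM. Both the lowest and the highest library of Eda2r were panobinostat libraries, and the log2 fold change was 0.51 (SE 0.48). Apaf1, the scaffold of the apoptosome, moved little, at 153, 102 and 118 CPM against 131, 141 and 141 CPM, a log2 fold change of 0.14 (SE 0.16).

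The other tested cell death genes are given by range. Aen, an exonuclease that degrades DNA in dying cells, ran from 85.2 to 154 CPM with a median of 119. Ei24, an endoplasmic reticulum protein of autophagy, ran from 88.5 to 140.0 CPM (median 114) and Pidd1, the scaffold that activates caspase-2, from 53.2 to 116 CPM (median 83.7). Aen and Pidd1 were highest in panobinostat library 3, followed by vehicle library 1. Rps27l, a ribosomal protein relative with a near-consensus element, ran only from 84.3 to 116 CPM (median 110). Bloc1s2, a subunit of a lysosome transport complex, ran from 29.2 to 46.3 CPM (median 36.3), and Cyfip2, an actin regulator, from 2.32 to 5.34 CPM (median 3.24). Perp and Dram1, a desmosome protein and a lysosomal autophagy protein, were at most 0.119 and 0.0580 CPM, at or near the limit that a count of 0 allows.

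Genes of growth arrest and signalling were less alike. Btg2, an antiproliferative regulator of mRNA decay, was counted at 131, 81.9 and 69.1 CPM in controls, next to 43.0, 66.9 and 104 CPM after panobinostat. It had the lowest fold change of the members, -0.40 on the log2 scale (SE 0.38), with vehicle library 1 highest and panobinostat library 1 lowest. Plk3, a stress-activated polo-like kinase, had the highest, 0.71 (SE 0.41), from 13.5, 5.16 and 6.18 CPM in vehicle and 16.9, 9.81 and 13.8 CPM with the drug. Vehicle library 1 lay among the panobinostat libraries, and edgeR's adjusted p was 0.998. Epha2, a receptor tyrosine kinase, ran from 52.8 to 119 CPM (median 87.7), with vehicle libraries at both ends. Plk2, another polo-like kinase, was at most 0.663 CPM.

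Repair genes split between movers and level genes. Polk, a translesion DNA polymerase, ran from 30.6 to 69.7 CPM (median 44.6) and Ercc5, the nuclease XPG of nucleotide excision repair, from 29.8 to 60.1 CPM (median 41.4), both highest in vehicle library 1. Ddb2, which recognises ultraviolet damage, stayed between 28.5 and 32.3 CPM (median 31.3). Part of its exons, 23.8% of their length, overlaps Acp2 on the opposite strand, and the strand setting of the counts is not given, so its level is uncertain. Xpc, another damage sensor, ran from 19.3 to 27.8 CPM (median 20.1) and was highest in panobinostat library 1. Rrm2b, the p53-inducible subunit of ribonucleotide reductase, ran from 12.5 to 18.2 CPM (median 15.4).

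Of the metabolic members, Sesn1, a sestrin that restrains mTORC1, had 82.7, 70.3 and 70.3 CPM in controls, next to 54.6, 64.0 and 78.4 CPM after panobinostat. The log2 fold change of Sesn1 was -0.18 (SE 0.16), and its groups overlapped. Tigar, a phosphatase that lowers glycolytic flux, was under 1 CPM in every library: 0.600, 0.602 and 0.609 CPM in vehicle and 0.472, 0.983 and 0.978 CPM with panobinostat, a log2 fold change of 0.42 (SE 0.40). Ak1, an adenylate kinase, ran from 0.222 to 1.55 CPM (median 0.720), which leaves its 6.96-fold range on few counts. Dcxr, a reductase of sugars, ran from 8.98 to 20.2 CPM (median 11.6), and Fdxr, the ferredoxin reductase of mitochondria, from 22.6 to 28.9 CPM (median 24.7), with vehicle library 1 the lowest.

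To compare levels between genes, mean CPM over the 6 libraries was divided by the joined exon length of each gene in kilobases. On this scale Rps27l (128) and Ccng1 (119) stood highest, then Trp53 (81.8), Phlda3 (45.6), Btg2 (30.1), Ei24 (23.6) and Mdm2 (21.1). Zmat3 and Mdm4, with long exons, came to 15.4 and 13.5, and Eda2r and Cyfip2 to 0.517 and 0.510. Isoforms shorter than the joined exons make such values too low.

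**Figure D3:**
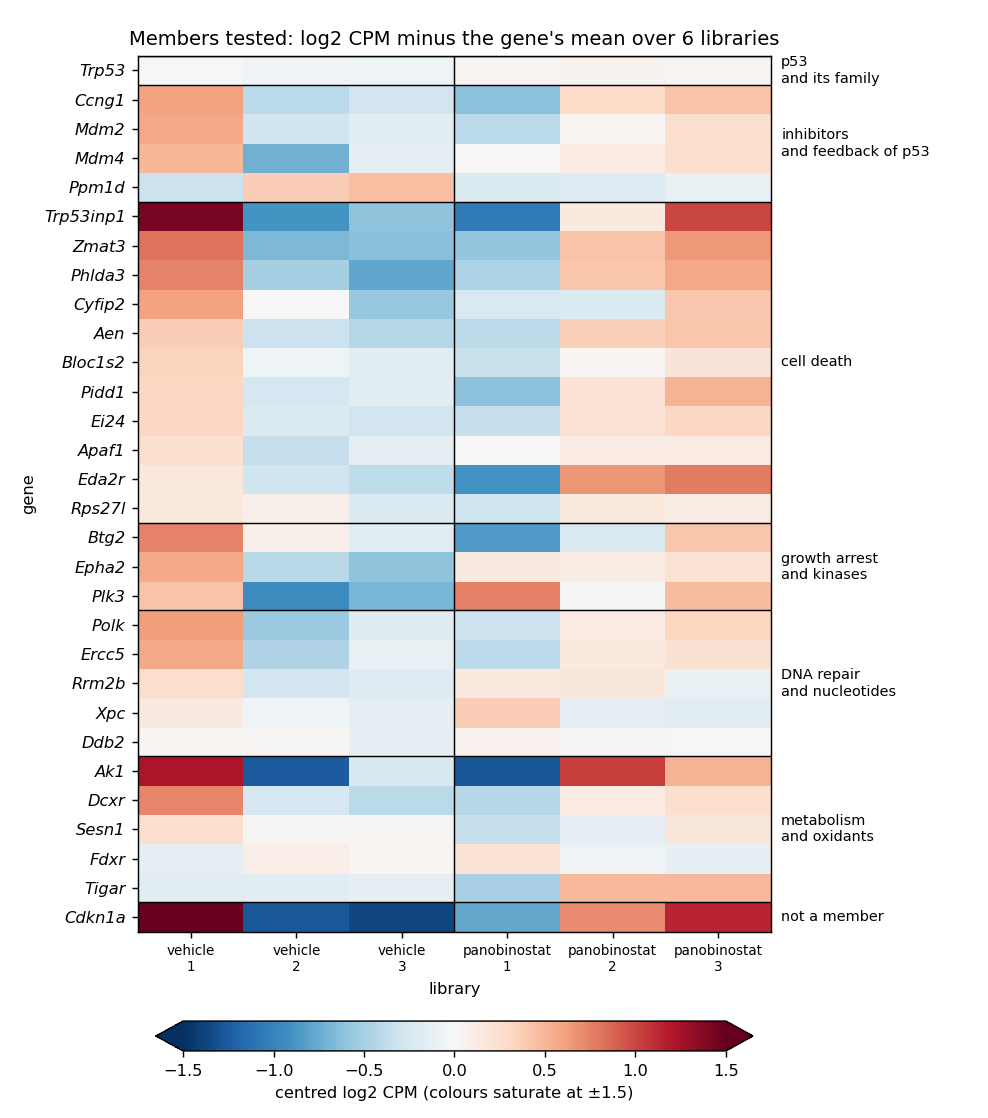
Log2 CPM of each tested member minus its mean over the 6 libraries, by library and grouped by role, with Cdkn1a in the last row and colours saturating at ±1.5. Vehicle library 1 and panobinostat libraries 2 and 3 are mostly red and the other 3 libraries mostly blue, with Ppm1d, Tigar and Fdxr below their means in vehicle library 1.

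Members moved together in an order of libraries that cut across the labelled groups; were a library labelled wrongly, this order and the treatment could not be told apart. After centring each gene's log2 CPM on its mean, the median member stood at 0.37, -0.27 and -0.19 in the 3 control libraries, in order of number, then -0.35, 0.12 and 0.25 in those after panobinostat. The same medians over all 13207 tested genes lay between -0.003 and 0.008, a range that the scaling itself keeps narrow. Vehicle library 1 held the highest CPM of 18 of the 29 members, beside 22.4% of all genes tested. Panobinostat library 1 held the lowest of 13, or 44.8%, where all genes gave 20.4%. With vehicle library 1 left out and genes centred again, the median member stood at -0.20 and -0.12 in vehicle libraries 2 and 3, then at -0.28, 0.22 and 0.37 after panobinostat. The choice of vehicle library 1 for this count was made with its place apart already known, and the counts are descriptions without a test.

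Setting libraries side by side 2 at a time gave the same picture inside each group. Of the 29 members, 26 were higher in vehicle library 1 than in vehicle library 2, and 26 higher than in vehicle library 3. Vehicle libraries 2 and 3 split the members 14 to 15. In the panobinostat group, 24 members were higher in library 2 than in library 1, and 24 higher in library 3 than in library 1. Between groups, 25 of 29 were higher in panobinostat library 3 than in vehicle library 2 and 26 higher than in vehicle library 3, whereas 21 were lower there than in vehicle library 1. All genes tested divided near the middle in each of these 15 pairs, as the scaling makes them do, at 47.9 to 53.8% in the first library.

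**Figure D4:**
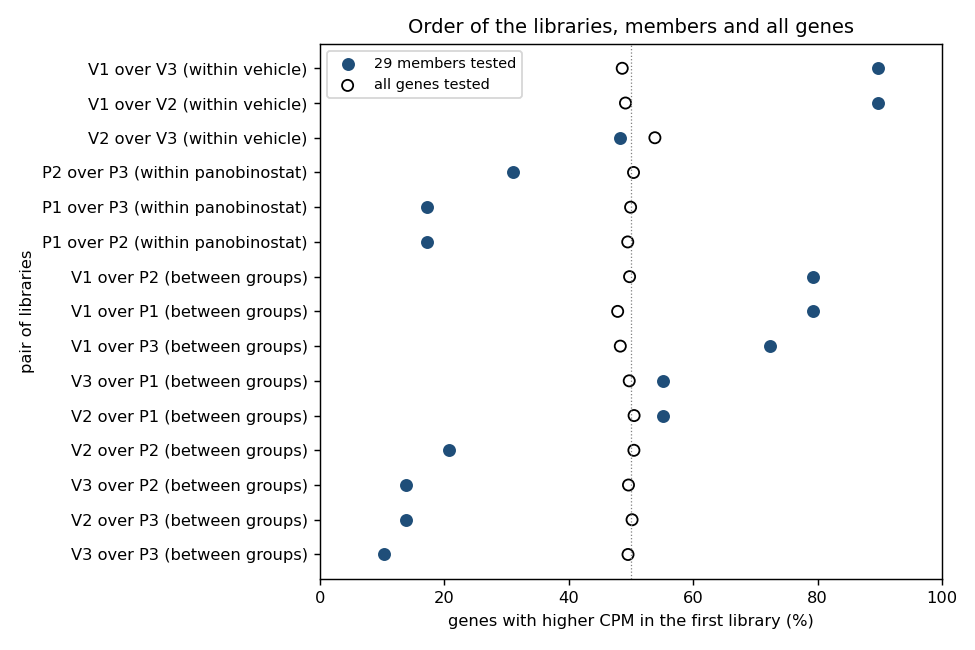
Share of genes with higher CPM in the first of 2 libraries, for the 29 members (filled) and all tested genes (open), over the 15 pairs of libraries (V vehicle, P panobinostat). Members range from 10.3 to 89.7% while all genes stay between 47.9 and 53.8%.

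A pair of members put 2 libraries in the same order in 66.1% of cases on average over the 15 library pairs, and a pair of genes out of all tested in 50.02%. The value over all genes follows from the scaling, which leaves genes at large split near the middle in every library pair. It does not show that genes at large are uncoordinated. The average for members was 70.0% within vehicle, 65.5% within panobinostat and 65.1% between groups. It was 64.0% without vehicle library 1 and 68.8% without panobinostat library 1. By role, the 11 cell death genes were most alike, at 81.6%, followed by the 5 repair genes at 66.7% and the 4 genes that restrain p53 at 63.3%. The 3 genes of growth arrest and signalling gave 60.0%. Within panobinostat the repair genes were at 40.0% in each of the 3 library pairs, the least that 5 genes can give. The 5 metabolic genes, at 49.3%, were near the value for all genes. The differences between roles were not tested.

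Cdkn1a, the p21 gene and the best known p53 target, had 428, 60.3 and 56.9 CPM in controls, next to 85.9, 238 and 324 CPM after panobinostat. Members were scored by how many of the 15 library pairs they put in the same order as Cdkn1a. The median member agreed on 12 and the median of all genes on 7. Without vehicle library 1 these medians were 7 and 5 of the remaining 10 pairs. Agreement on 13 or more was found for 12 of the 29 members, beside 11.2% of all genes. These were Mdm4, Phlda3, Aen, Ei24, Apaf1, Cyfip2, Bloc1s2, Zmat3, Epha2, Polk, Ercc5 and Dcxr. Phlda3 agreed on all 15, Mdm4, Zmat3 and Epha2 on 14, and Mdm2, Ccng1, Trp53inp1 and Rrm2b on 12. At the other end, Ppm1d and Fdxr agreed on 3, Tigar on 7 and Xpc on 8.

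**Figure D5:**
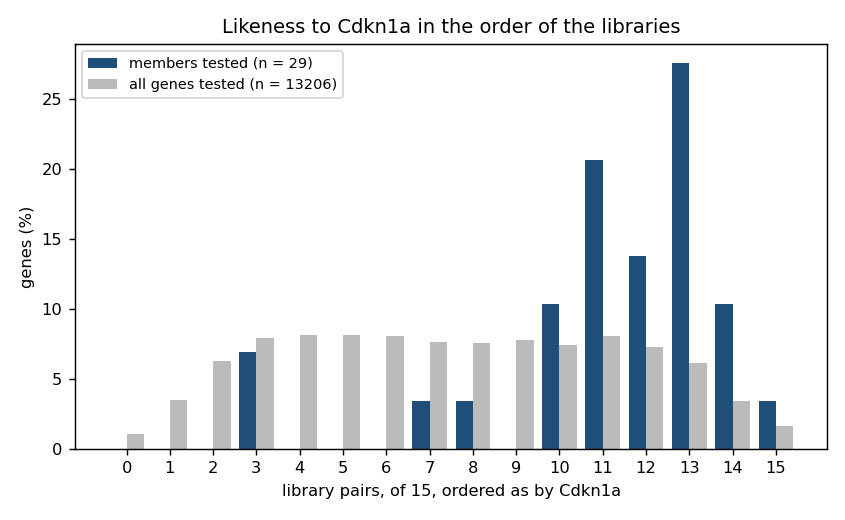
Share of the 29 members and of all tested genes except Cdkn1a, members included, by the number of library pairs, of 15, that they order as Cdkn1a does. Members gather at 10 to 15 with a median of 12, while all genes have a median of 7.

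Members with a p53 element in the window lay both near Cdkn1a and far from it. Of the 6 tested members with a match, Aen agreed on 13 pairs and Ccng1 on 12, Rps27l and Trp53 on 11, Sesn1 on 10 and Tigar on 7. Members without a match in their windows, such as Mdm4 and Phlda3, agreed on 14 and 15. Elements outside these windows, for instance elsewhere within the genes, were not searched.

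Other targets of p53 behaved only in part like the members. A pair of them put 2 libraries in the same order in 54.7% of cases on average, against 66.1% for members. Their average was 51.1% within vehicle and 61.0% within panobinostat. Of 38 such genes, 32 were tested and edgeR called 0, with 16 estimates above 0 and 16 below and a median log2 fold change of 0.00. Besides Cdkn1a, 10 of the 31 others put 13 or more library pairs in its order. Bax, a pore-forming death effector, had 199, 145 and 117 CPM in vehicle and 120.3, 182 and 178 CPM with panobinostat. Bbc3, the BH3-only protein PUMA, had 51.0, 23.3 and 25.2 CPM, then 24.6, 36.2 and 54.8 CPM. Pmaip1, the BH3-only protein NOXA, was at most 0.821 CPM.

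Gadd45a, a growth arrest gene, departed from this order, with 7.92, 40.5 and 36.3 CPM in controls, next to 6.92, 8.99 and 14.7 CPM after panobinostat. Its log2 fold change of -1.47 (SE 0.62) did not pass (edgeR adjusted p 0.998). The genes with the next smallest p in that list were Bcl6, a repressor at most 0.812 CPM, Casp1, a caspase at most 0.573 CPM, and Fbxw7, a ubiquitin ligase subunit at 19.7 to 30.8 CPM. None of the 3 passed either.

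Upstream regulators of p53 did not follow its targets. Of 27 kinases and cofactors, 26 were tested, 0 were called by edgeR, and the median log2 fold change was -0.10. A pair of these genes put 2 libraries in the same order in 53.6% of cases on average. Only 1 of the 26 put 13 or more library pairs in the order of Cdkn1a. That gene, Cdkn2a, was singled out after its values were seen, since its protein p19ARF blocks Mdm2, and it had 22.5, 4.21 and 3.97 CPM in controls, next to 6.00, 10.2 and 10.3 CPM after panobinostat. The smallest p in the list belonged to Hexim1, a transcription elongation inhibitor, with a log2 fold change of -0.21 (SE 0.09). Next came Cop1 and Rchy1, ubiquitin ligases of p53, at -0.28 (SE 0.13) and -0.21 (SE 0.10), and Sirt1, a deacetylase of p53, at -0.29 (SE 0.15). Each had an edgeR adjusted p of 0.998.

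Some markers of other cells also moved along the libraries. The summed level of 11 erythroid markers, globins among them, was 23696, 14278 and 8133 CPM in controls, next to 2964, 17807 and 22959 CPM after panobinostat. This is high where members were high, in vehicle library 1 and panobinostat libraries 2 and 3. Of the 11, 4 put 13 or more pairs in the order of Cdkn1a, beside 11.2% of all genes tested. The 10 megakaryocyte markers summed to 443, 243 and 242 CPM and to 227, 387 and 396 CPM, in the same pattern, and 3 were highest in vehicle library 1. Of these 10, 5 were tested and 4 had a library without counts, and only 1 of the tested put 13 or more pairs in the order of Cdkn1a. Among the 10, Itga2b, an integrin chain named after its values were seen, put all 15 pairs in that order. Mast cell and basophil markers were highest in panobinostat library 1, at 2431 CPM against 833 to 980.2 CPM elsewhere. B cell markers summed to 33.6 to 75.8 CPM in controls and 6.31 to 36.1 CPM after panobinostat. T cell markers summed to 11.5 to 17.3 and 2.28 to 15.4 CPM. Monocyte markers summed to 13.98 to 32.04, granulocyte markers to 1.53 to 6.71 and dendritic cell markers to 51.7 to 69.2 CPM over the 6 libraries. Among tested B cell, T cell, granulocyte and dendritic cell markers, 0 of 12, 0 of 12, 0 of 5 and 0 of 7 reached 13 pairs in the order of Cdkn1a. Mast cell and basophil markers gave 1 of 9 and monocyte markers 1 of 11. No marker gene was at 0 in every library. The part of these cells or states in the levels of the p53 genes was not tested, and in bulk RNA more cells of a type cannot be told apart from more RNA per cell.

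Calls by edgeR appeared without vehicle library 1 and without both libraries numbered 1, but not when any other single library was left out. Without vehicle library 1 the median log2 fold change of the members was 0.31, with 25 of 29 estimates above 0. EdgeR then called Epha2 higher (0.65, SE 0.09, adjusted p 0.0375) and Ppm1d lower (-0.60, SE 0.10, adjusted p 0.0442), where 2.0% of 13369 genes were called higher and 0.419% lower. Epha2 stood at 60.4 and 52.8 CPM in the remaining vehicle libraries and at 88.5, 87.0 and 93.2 CPM after panobinostat. Vehicle library 1, left out with its place apart known, was the highest library for Epha2 and the lowest for Ppm1d. The calls of this fit therefore describe the remaining libraries and not the treatment in all 6. Cdkn1a was not called in that fit, at 1.87 (SE 0.56, edgeR adjusted p 0.152). Of the other targets, Gadd45b was called higher and Gadd45a lower (-1.92, SE 0.32), with adjusted p of 0.0376 and 0.0498 by edgeR.

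Without both libraries numbered 1, which leaves 2 against 2, edgeR called 9 members higher and 1 lower, where 7.36% of 13239 genes were called higher and 4.65% lower. The 9 were Ccng1 (log2 fold change 0.69), Phlda3 (1.13), Eda2r (1.06), Aen (0.75), Ei24 (0.49), Pidd1 (0.57), Zmat3 (1.19), Plk3 (1.04) and Epha2 (0.66). Ppm1d was again lower, at -0.57. Cdkn1a was called higher in that setting, at 2.25 (SE 0.16, edgeR adjusted p 0.0016). Mdm2 and Trp53inp1 were not called there, at 0.35 and 1.37, with adjusted p of 0.0899 and 0.0766 by edgeR. These 2 libraries were set aside with their place among the others known, so the calls describe the remaining 4 libraries and not the treatment in all 6.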

How the data were processed

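The authors deposited whole-number read counts per Entrez gene for 6 libraries, and these were not normalized, judging by the values. The submitters' processing notes name HISAT2 2.1.0, mm10, cutadapt 2.1, Subread 2.0.0 with featureCounts, FastQC 0.11.6, limma and bcl2fastq 2.17.1.14. What each did, the annotation and the strand setting were not given in the sources used here, so counts of genes that overlap on opposite strands are uncertain. Column names give the group and a number from 1 to 3 that the labels do not tie to their replicate numbers, so libraries are named by group and column number.

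Identifiers were matched to symbols in RefSeq's GRCm38.p6 table (25275 of 27179). The test on the counts was that of edgeR 4.0.16 (R 4.3.3): filterByExpr with a minimum count of 10, TMM factors, the robust quasi-likelihood F-test over all genes, two-sided, Benjamini-Hochberg adjustment, threshold 0.05. SEs are the fold change divided by the square root of F. Log2 CPM used a prior count of 2. Exon lengths and overlaps come from GENCODE M21. The fit was tested on simulated data.

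Members and gene lists were chosen with earlier results of these data known. Values in every library are given for Trp53 and Mdm2, members whose groups did not overlap, the 8 with the smallest p, and the 8 with the widest range at a mean log2 CPM of at least 1. In the other lists the rule took Cdkn1a, Gadd45a, Bax, Bbc3, Pmaip1 and the 4 smallest p of each. Alternatives were RLE factors, library size alone, DESeq2 1.42.0, no filter, a filter at 1 CPM on the mean, a replicate block, limma-voom (limma 3.58.1), and leaving out each library or both numbered 1.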

Additional observations from a re-analysis of the deposited data

How the results depend on the processing

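The count of genes called over all genes was 0 by edgeR under other scalings and filters, by limma-voom and with the replicate block, 9 by DESeq2, 0 to 324 with each library left out in turn (324 without vehicle library 1) and 1590 without both libraries numbered 1. Members called were 0 under the same scalings, filters and tools, 0 to 2 with each library left out (2 without vehicle library 1), and 10 without both libraries numbered 1. The median log2 fold change of the members, 0.07, ran from 0.05 to 0.08 under the scalings, filters, tools and block, from -0.01 without panobinostat library 3 to 0.31 without vehicle library 1, and was 0.49 without both libraries numbered 1. The count of members highest in vehicle library 1 was 17 to 20 under the other scalings and filters. The agreement of members ran from 61.0% with no filter to 68.8% without panobinostat library 1. In an alternative chosen after seeing the data, the median share of library pairs that members put in the order of Cdkn1a, 80%, ran from 70% without vehicle library 1 to 90% without vehicle library 2.

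Estimates of several named members changed sign, none past the threshold in either direction under the alternative concerned. Trp53inp1 was at 0.061 with limma-voom, 0.20 with the replicate block and 1.37 without both libraries numbered 1. In that last setting Mdm2 was at 0.35, Btg2 at 0.17 and Sesn1 at 0.0069. With each library left out in turn, log2 fold changes ran from -0.15 to 0.43 for Ccng1, from -0.28 to 0.19 for Mdm2, from -0.077 to 0.52 for Mdm4, from -0.0029 to 0.87 for Phlda3, from -0.71 to 0.99 for Trp53inp1 and from -0.0060 to 0.90 for Zmat3. The cause was not tested. Same-numbered libraries had correlations of their deviations from the group means of -0.14, 0.07 and -0.20, so the numbers were not taken as pairs; the replicate block called 0 genes. Depth limits Tigar, Ak1, Perp, Dram1, Plk2 and Trp73, which had few counts.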
